A study of Mus musculus with 18 samples.

Results

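The distal upstream desert of *Runx1* is the stretch of mouse chromosome 16 from 93050000 to 93635000 (mm10), 585 kb of DNA without a protein-coding gene until *Setd4* near its far edge. *Runx1* is on the minus strand, so upstream means a higher coordinate, and the desert begins 224 kb upstream of the P1 start site (92826074). The fragments described here are all *Dpn*II fragments with their midpoint in this stretch that were listed as significant interactions of at least 1 of 6 4C-seq baits. There were 339 such fragments, of 1970 distinct fragments in the 6 lists (17.2%) and of 1316 *Dpn*II fragments in the desert (25.8%). No filter was applied, and all 339 enter the counts. Across the domain around *Runx1* in which interactions were called separately, 43.4% of the *Dpn*II fragments were in at least 1 list.

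4C-seq (circular chromosome conformation capture with sequencing) was done in HPC-7, an untreated mouse multipotent haematopoietic progenitor cell line grown with stem cell factor, with 2 replicates and 1 control library for each of 6 baits, 18 libraries in all. The replicates were 2 passages of the same line, and in the control, a mixture of both, the first ligation step had been omitted. P1 and P2 were baits at the active and the inactive *Runx1* promoter, +24 was a bait at an enhancer in the intron between them, and P1cc, +24cc and P2cc were second baits at cohesin and CTCF binding sites near each of them. The lists give only fragments called in both replicates, without read counts, so the depth behind a fragment is unknown and no spread between replicates can be given.

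Runx1 is a transcription factor that blood stem and progenitor cells need in order to form, and transcripts from its P1 and P2 promoters encode proteins with different N-termini. Enhancers are stretches of non-coding DNA bound by transcription factors, and they can lie far from the promoter they act on. In 4C-seq, cross-linked chromatin is cut and ligated, so that fragments close to the bait in the nucleus are joined to it and can be read by sequencing outward from the bait. The elements *−303*, *−321*, *−327*, *−354*, *−368* and *−371*, named by their distance in kb from the P1 start site, were selected in the study for clusters of transcription factor binding (*−368* as a conserved element beside such a cluster) and for a significant interaction within 2 kb in these same lists. Their contacts are therefore a description and were not tested.

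The central 300 bases of the 5 elements that cloning primers place on the genome are shown because the contacts turn on these positions. They are read from GRCm38.p6, the patch release whose chromosomes have the coordinates of mm10, on the plus strand. Capitals mark the letters AGATAA (the core bound by GATA factors), TGTGGT (RUNX), AGGAAG (ETS) and CAGCTG (an E-box) on either strand, and matches of different motifs were allowed to overlap.
*−303*, chr16:93129501-93129800: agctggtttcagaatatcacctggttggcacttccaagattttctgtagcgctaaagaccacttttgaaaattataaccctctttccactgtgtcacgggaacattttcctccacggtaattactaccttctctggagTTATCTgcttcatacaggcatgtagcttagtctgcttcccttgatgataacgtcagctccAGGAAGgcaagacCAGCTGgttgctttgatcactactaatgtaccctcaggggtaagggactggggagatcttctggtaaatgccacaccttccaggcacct
*−321*, chr16:93147705-93148004: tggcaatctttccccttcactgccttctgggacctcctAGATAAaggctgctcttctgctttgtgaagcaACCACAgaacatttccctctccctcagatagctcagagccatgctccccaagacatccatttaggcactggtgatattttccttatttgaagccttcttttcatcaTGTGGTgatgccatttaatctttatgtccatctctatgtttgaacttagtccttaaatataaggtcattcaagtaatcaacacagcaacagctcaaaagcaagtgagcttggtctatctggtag
*−327*, chr16:93152929-93153228: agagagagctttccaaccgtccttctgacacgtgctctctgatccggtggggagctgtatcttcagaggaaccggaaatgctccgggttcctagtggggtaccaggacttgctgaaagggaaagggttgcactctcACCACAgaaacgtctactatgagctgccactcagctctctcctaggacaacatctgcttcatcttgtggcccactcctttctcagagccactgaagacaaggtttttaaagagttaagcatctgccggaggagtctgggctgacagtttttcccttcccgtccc
*−354*, chr16:93180253-93180552: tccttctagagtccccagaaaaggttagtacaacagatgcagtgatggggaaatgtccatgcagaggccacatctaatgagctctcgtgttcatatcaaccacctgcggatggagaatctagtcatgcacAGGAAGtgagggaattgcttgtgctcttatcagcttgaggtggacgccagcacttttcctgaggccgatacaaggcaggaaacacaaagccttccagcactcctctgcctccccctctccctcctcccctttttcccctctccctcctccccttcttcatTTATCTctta
*−371*, chr16:93197396-93197695: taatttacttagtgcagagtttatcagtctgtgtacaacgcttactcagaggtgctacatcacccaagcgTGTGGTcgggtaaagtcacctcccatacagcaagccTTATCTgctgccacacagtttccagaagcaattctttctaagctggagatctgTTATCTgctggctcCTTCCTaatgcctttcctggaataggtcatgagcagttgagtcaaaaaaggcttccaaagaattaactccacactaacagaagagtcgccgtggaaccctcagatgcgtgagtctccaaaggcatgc

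The centres of *−303* and *−371* held 3 of the 4 kinds of motif, those of *−321* and *−354* held 2, and that of *−327* held 1. In *−303* these were a GATA, an ETS and an E-box match, and in *−371* there were 2 GATA matches, 1 RUNX and 1 ETS match. The *−321* centre had 1 GATA and 2 RUNX matches, the *−354* centre 1 GATA and 1 ETS match, and the *−327* centre a single RUNX match. Of the 1950 consecutive windows of 300 bases that cover the desert, 17.1% held AGATAA, 22.5% TGTGGT, 31.6% AGGAAG and 14.6% CAGCTG, while 42.6% held exactly 1 kind, 16.9% exactly 2 and 3.03% exactly 3. Over their whole lengths *−354* held 2 kinds and the other 5 elements, the stretch of 1000 bases taken for *−368* included, held 3 each, as did 31.8% of the 585 windows of 1000 bases in the desert (38.5% held exactly 2 and 6.15% all 4). The *−321* element has only 547 bases, so it is unlike these windows in length. A match of letters is no measurement of binding, and the elements had been picked for binding of such factors.

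A further pair of fragments is shown because of the baits that listed them. The first was the only fragment of at most 300 and at least 30 bases among the 8 listed by 4 baits (P1cc, P1, +24 and +24cc). The second lay in an interaction 476 kb upstream of P1 that P1cc and P2cc listed with the same ends. It was among the 5 fragments listed by P1cc, P1 and P2cc, and in it a GATA and a RUNX match abut. How often such matches abut elsewhere was not counted. A fragment listed by P1, P2cc and P2 (93361221 to 93361365), whose sequence is not shown, held none of the motifs. Capitals mark the same motifs.
listed by 4 baits, chr16:93113918-93114075: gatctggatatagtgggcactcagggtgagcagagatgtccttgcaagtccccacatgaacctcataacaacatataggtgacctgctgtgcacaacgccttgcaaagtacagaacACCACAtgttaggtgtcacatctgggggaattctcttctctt
listed by P1cc, P1 and P2cc, chr16:93304375-93304593: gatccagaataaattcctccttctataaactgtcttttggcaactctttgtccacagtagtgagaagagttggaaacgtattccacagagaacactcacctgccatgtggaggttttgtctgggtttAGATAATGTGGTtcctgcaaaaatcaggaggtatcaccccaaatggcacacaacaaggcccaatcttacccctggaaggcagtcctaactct

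The baits at the +24 enhancer listed the largest shares of the desert's fragments, those at P1 came next and those at P2 listed the smallest. +24cc listed 171 of the 1316 *Dpn*II fragments (13.0%, against 24.9% of the fragments of the domain), and +24 listed 163 (12.4%, against 21.2%). P1cc listed 115 fragments (8.74%, against 16.1%), and P1 listed 88 (6.69%, against 12.1%). P2 listed 20 fragments (1.52%, against 9.59% of the domain), and P2cc listed 9 (0.684%, against 9.69%). All 6 baits thus listed a smaller share of the desert than of the whole domain, which holds the baits themselves. In the 602 fragments of the desert nearer to P1, between the P1 start site and 93050000, P2 listed 1.99%, P2cc 8.47%, P1 34.1%, +24 35.7%, +24cc 41.2% and P1cc 48.5%.

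**Figure D1:**
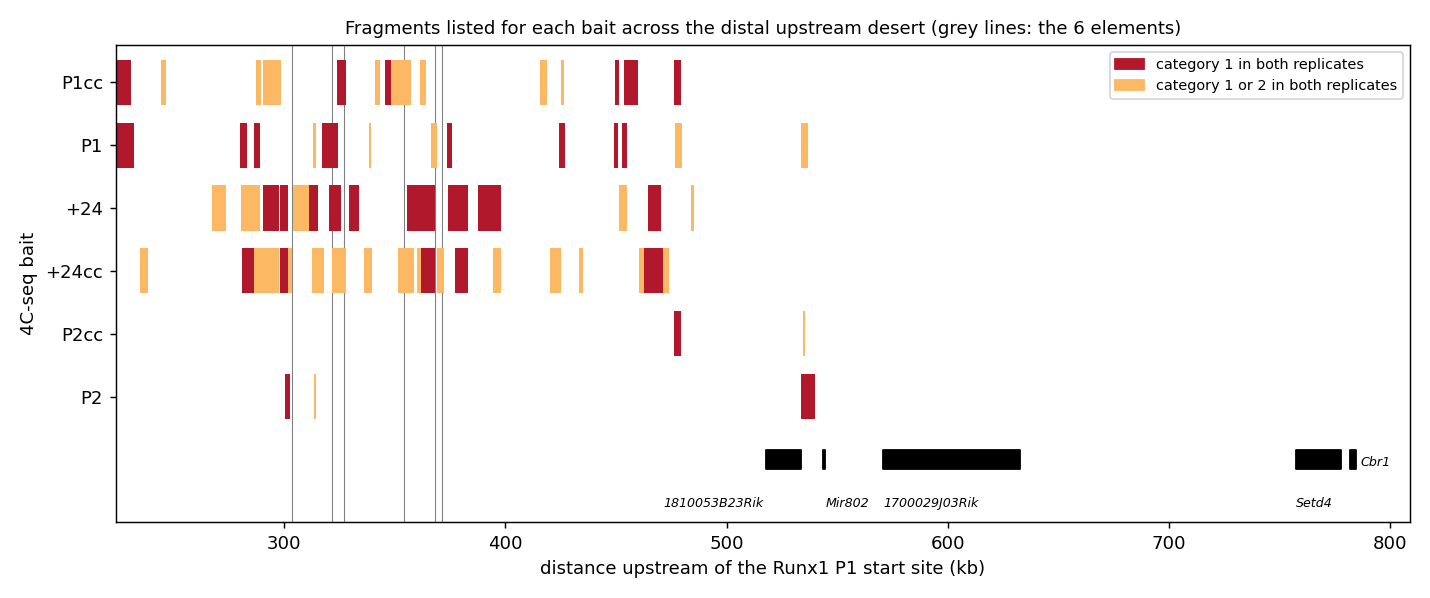
Fragments listed for each of the 6 4C-seq baits (rows) by their distance upstream of the P1 start site in kb, in red where they were category 1 in both replicates and in orange where they were category 1 or 2. Grey lines are the 6 elements and black bars are genes. The last listed fragment of the desert ends 540 kb upstream of P1, and nothing is listed beyond it within the desert.

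Fragments that abut were merged into interactions, of which the desert held 60. The +24cc list had 16 of them, the +24, P1 and P1cc lists 13 each, the P2 list 3 and the P2cc list 2. At the median, +24 interactions were 6.39 kb long, those of +24cc 5.36 kb, those of P1cc 2.87 kb and those of P1 2.63 kb. In the desert, the interactions of the +24 baits were thus about as many as those of the P1 baits, and longer at the median. Lengths in the rest of the domain are not given here, and the +24 libraries had a different second enzyme (*Mse*I, against *Bfa*I). In length, +24 covered 91.6 kb of the desert, +24cc 89.0 kb, P1cc 54.8 kb, P1 41.2 kb, P2 9.62 kb and P2cc 4.00 kb. The longest were 93181422 to 93194159 for +24 (24 fragments), 93286658 to 93299845 for +24cc (22 fragments), 93171793 to 93183340 for P1cc (25 fragments), 93050196 to 93058044 for P1 (15 fragments), 93359575 to 93366066 for P2 (15 fragments) and 93302523 to 93305396 for P2cc (6 fragments).

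Category 1, in which an interaction stays significant after its strongest fragment is taken out, was a larger share of the listed fragments for P1 and +24 than for their cc baits. P1 had 64 of its 88 fragments in category 1 (72.7%, 95% Wilson interval 62.6 to 80.9%), and P1cc had 44 of 115 (38.3%, 29.9 to 47.4%). +24 had 111 of 163 (68.1%, 60.6 to 74.8%), and +24cc had 49 of 171 (28.7%, 22.4 to 35.8%). Within both pairs the intervals do not overlap, but neighbouring fragments were called together in windows, so the intervals cover counting error only and are too narrow. P2 had 18 of 20 fragments in category 1 and P2cc 6 of 9. In the rest of the domain, category 1 held 271 of 301 fragments listed by P1, 71.6% of those of P1cc, 74.6% of those of +24 and 69.9% of those of +24cc, each above the share in the desert. There P2 had 83.0% and P2cc 85.8%. Of all 1316 *Dpn*II fragments of the desert, +24 had 8.43% in category 1 (15.5% of the domain), P1 4.86% (10.4%), +24cc 3.72% (15.2%), P1cc 3.34% (10.4%), P2 1.37% (8.01%) and P2cc 0.456% (8.26%). Of the 339 fragments, 213 (62.8%) were category 1 for at least 1 bait and 126 for none, against 1125 of the 1398 listed in the whole domain (80.5%).

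Counted by interactions, which do not weight long runs, the share with a category 1 fragment was not shown to differ between the desert and the rest of the domain for any bait. For +24cc it was 5 of 16 in the desert and 23 of 41 elsewhere, and for P1cc 6 of 13 and 20 of 32. P1 had 8 of 13 in the desert and 17 of 22 elsewhere, and +24 had 9 of 13 and 22 of 41. P2cc had 1 of 2 and 18 of 24, and P2 had 2 of 3 and 19 of 27. The smallest adjusted p over the 6 baits was 0.569 (Fisher's exact tests, two-sided, adjusted by the Benjamini-Hochberg method).

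Of the interactions in the domain, 26 of 80 from the P1 pair (P1 with P1cc) lay in the desert (32.5%, Wilson interval 23.2 to 43.4%), against 5 of 56 from the P2 pair (8.93%, 3.87 to 19.3%). The odds ratio was 4.91 (Fisher's exact test, two-sided, unadjusted p = 0.00156 and 0.00467 after adjustment over 3 pairs). For the +24 pair it was 29 of 111 (26.1%, 18.9 to 35.0%), with an odds ratio against the P2 pair of 3.61 (exact p = 0.0085, adjusted 0.0128). The P1 and +24 pairs were not shown to differ (odds ratio 1.36, exact p = 0.418, adjusted p = 0.418). In these tests the unit is the interaction, so they set lists against each other, not replicate cultures. Joining neighbouring baits counts some contacts more than once, such as those of P1cc and P1 that both begin at 93050196, so these p-values are too small. Each test with the +24 pair also set *Mse*I libraries against *Bfa*I libraries, and the part of the second enzyme was not tested. The baits also lay at different distances from the desert, P1cc and P1 at 222 and 224 kb, +24 and +24cc at 248 and 249 kb, and P2cc and P2 at 351 and 352 kb. The part of distance in the difference was not tested. Leaving out interactions within 50 kb of the bait cannot test it, since the distances to the desert stay unlike. That setting removed no interaction of the desert and only lowered the domain totals. The odds ratio of the +24 pair was then 2.62 and no longer passed (exact adjusted p = 0.109), while that of the P1 pair was 3.73 and passed (exact adjusted p = 0.0383). With 1 bait a pair neither call held, for P1 and +24 against P2 (exact adjusted p = 0.0579 and 0.228) or for P1cc and +24cc against P2cc (0.0682 for each). Merging fragments up to 5 kb apart also ended both calls (exact adjusted p = 0.0685 for the P1 pair and 0.119 for the +24 pair), and with category 1 fragments alone the +24 pair no longer passed (0.0831).

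Listed fragments began 0.196 kb inside the desert and ended at 93366066, 540 kb upstream of P1. The last 269 kb, with 616 *Dpn*II fragments, held none from any bait. Of the 700 fragments up to the last listed one, 48.4% were listed. They formed 20 separate runs, of which the longest went from 93171793 to 93198138 (54 fragments, 26346 bp) and took in *−354*, *−368* and *−371*. The widest gap between runs was 48.1 kb (93311449 to 93359574, 119 fragments).

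**Figure D2:**
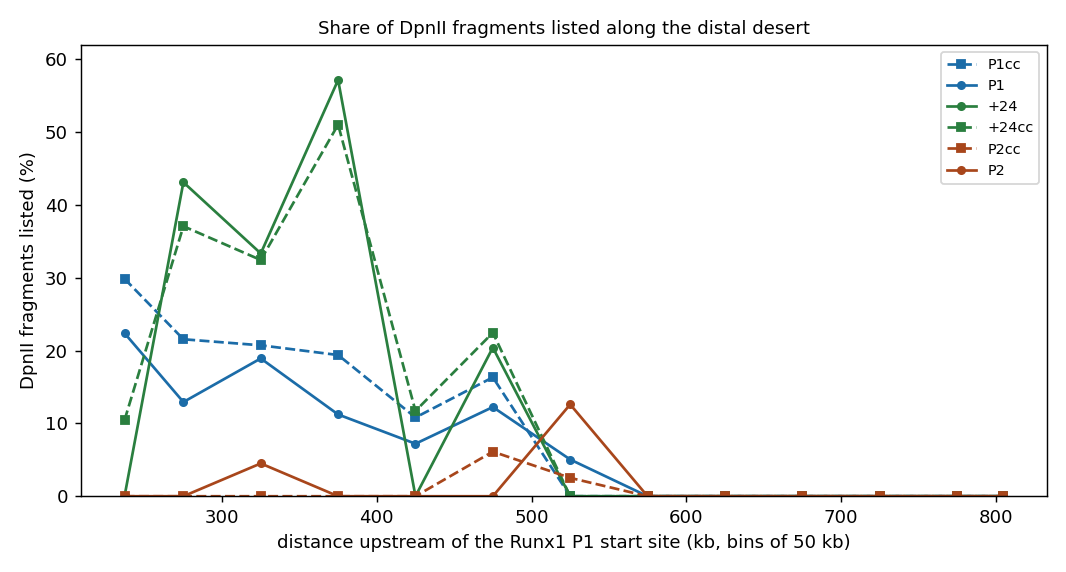
Percentage of the *Dpn*II fragments listed by each bait in bins of 50 kb (points at bin centres, with fragments of the desert alone counted, so that the first bin begins at 224 kb and the last is also cut short) against the distance upstream of the P1 start site in kb. Both +24 baits peak between 350 and 400 kb, at 57.1% for +24 and 51.0% for +24cc, and from 550 kb on all baits are at 0.

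By distance, the baits differed in where they were listed most. P1cc was highest at the near edge, with 29.9% of the 67 fragments between the start of the desert and 250 kb upstream of P1, and stayed between 19.4 and 21.6% up to 400 kb. P1 listed 22.4% of these 67 fragments and 18.9% between 300 and 350 kb. +24 listed none of the 67, of which +24cc listed 10.4%, and then 43.1% between 250 and 300 kb and 33.3% between 300 and 350 kb. Between 400 and 450 kb +24 again listed none, P1cc 10.8%, P1 7.21% and +24cc 11.7%. From 450 to 500 kb these 4 baits listed 12.2 to 22.4%. P2 had 4.50% between 300 and 350 kb and its highest share, 12.6%, between 500 and 550 kb, where P1 had 5.04% and P2cc 2.52% and the other baits had none.

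Of the 339 fragments, 180 were listed by 1 bait, 99 by 2, 52 by 3 and 8 by 4, and none by 5 or 6. The share listed by a single bait was 53.1%, against 36.1% of the 1398 fragments listed in the whole domain. The P1 pair listed 173 fragments, of which 81 were in no other pair's lists, and the +24 pair listed 237, of which 154 were in no other. The P2 pair listed 26, of which 9 (all from P2) were in no other. These are 46.8%, 65.0% and 34.6% of the fragments of each pair in the desert, against 31.2%, 40.9% and 30.0% over the domain. The P1 and +24 pairs had 80 fragments in common, and the 3 pairs together had 2, which were neighbours.

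**Figure D3:**
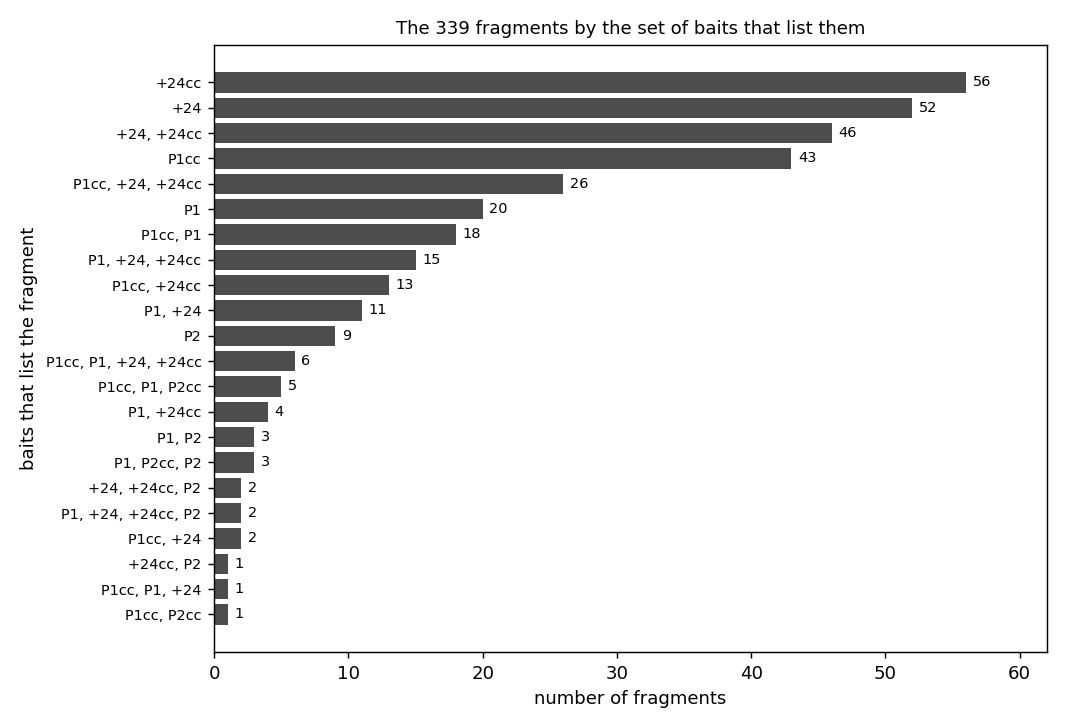
Number of the 339 fragments (bar length) for each set of baits that list them. The sets of +24cc alone (56 fragments), +24 alone (52) and both together (46) are the largest.

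+24 and +24cc had 97 fragments in common, 59.5% of those of +24 and 56.7% of those of +24cc, and 37 of them were category 1 for both. P1cc and P1 had 30 in common, 26.1% of P1cc and 34.1% of P1, and 18 of them were category 1 for both. Over the whole domain the shares were 68.3% of +24 and 58.1% of +24cc, and 45.4% of P1cc and 60.7% of P1, and there 296 of 466 and 167 of 236 shared fragments were category 1 for both. P1cc shared more fragments with +24cc than with P1, 45 in all (39.1% of P1cc, 26.3% of +24cc), but none of these was category 1 for both. Over the whole domain P1cc also shared more with +24cc (247 fragments, 47.5% of P1cc and 30.8% of +24cc) than with P1 (236), and 120 of the 247 were category 1 for both. In the desert P1 and +24 shared 35 fragments (39.8% of P1, 21.5% of +24), 10 of them category 1 for both, against 48.8% of P1 and 27.9% of +24 over the domain, with 135 of 190 in category 1 for both. P2cc and P2 shared 3 fragments (33.3% of P2cc and 15.0% of P2, against 53.5 and 54.0% over the domain), none category 1 for both, against 129 of 167 over the domain. P1 listed 8 of the 9 fragments of P2cc and 8 of the 20 of P2, while P1cc listed 6 of P2cc and none of P2. Over the domain P1 listed 24.4% of P2cc and 15.2% of P2, and P1cc listed 25.6 and 11.7%. The counts of P2cc and P2 in the desert are small and come from 2 and 3 interactions. The +24 and +24cc libraries were cut with a different second enzyme (*Mse*I) from the other libraries (*Bfa*I), so pairs within and between these sets are not alike in preparation.

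The block from *−303* to *−371* (93129158 to 93198031, 68.9 kb) held 148 *Dpn*II fragments, of which 79.7% were in at least 1 list, against 18.9% in the rest of the desert and 40.0% of the 552 other fragments of the desert up to the last listed one. +24cc listed 43.2% of the block, +24 39.2%, P1cc 28.4%, P1 18.2%, P2 1.35% and P2cc none. Over those 552 fragments the same baits listed 19.4%, 19.0%, 13.2%, 11.1%, 3.26% and 1.63%, and over all fragments outside the block, the empty last 269 kb included, 9.16%, 8.99%, 6.25%, 5.22%, 1.54% and 0.771%. The share of +24 between 250 and 300 kb, outside the block, was 43.1% and thus above that in the block. No test was made, since the block is bounded by elements that had been selected for these interactions. Within 2 kb of an element lay 51 of the 339 fragments (15.0%), out of 65 *Dpn*II fragments there.

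+24cc overlapped all 6 elements directly. +24 lay within 2 kb of all 6 and overlapped 3, P1 lay within 2 kb of 4 and overlapped 2, and P1cc overlapped 2 and lay within 2 kb of no other. P2 lay within 2 kb of 1 element, *−303*, without overlapping it, and P2cc within 2 kb of none. The elements are taken in turn from the nearest to the farthest from P1.

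**Figure D4:**
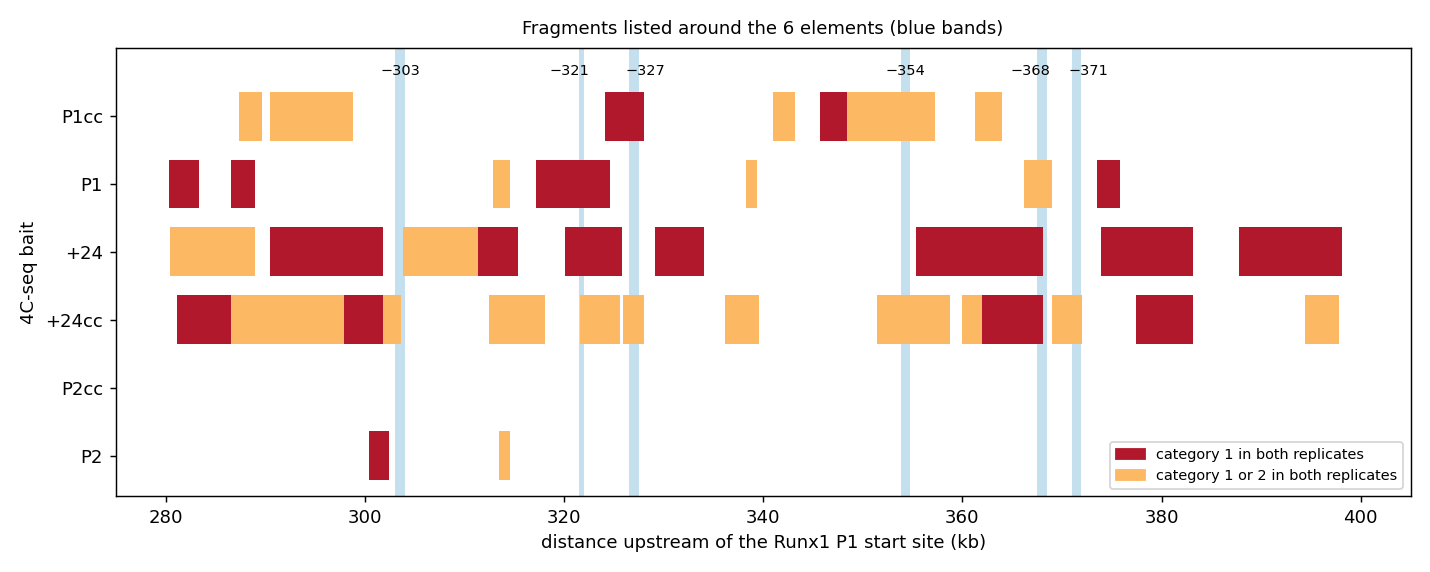
Fragments listed for each bait (rows) around the 6 elements (blue bands), by distance upstream of the P1 start site in kb, with category 1 in red and other listed fragments in orange. The row of P1cc covers *−327* and *−354*, and that of P1 covers *−321* and *−368*.

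*−303* (93129158 to 93130143) was overlapped by +24cc on the side of P1 and by +24 on the far side. It lies over an exon of *Gm30474*, a predicted long non-coding RNA gene (93127826 to 93132040). The +24cc interaction ended inside it at 93129725 (from 93124022, 11 fragments, 7 of them category 1), and the +24 interaction began inside it at 93129935 (to 93141470, 19 fragments, 9 of them category 1). Between them lay a pair of fragments in no list, 93129726 to 93129934, which include the right end of the *−303* sequence shown above, from the gatc that follows its E-box. A further +24 interaction lay on the side of P1, from the same first base as that of +24cc (93124022) to 93127859, 1.30 kb from the element, and all its 7 fragments were category 1. The P2 interaction nearest to it (93126494 to 93128556, 3 fragments, all category 1) ended 0.601 kb away. Of these 3, the fragments 93126494 to 93126896 and 93126897 to 93127859 were category 1 for +24, +24cc and P2 alike, and only 1 other fragment of the desert was category 1 for as many as 3 baits. The nearest P1cc fragment was at 4.29 kb, the nearest P1 fragment at 8.80 kb and the nearest P2cc fragment at 172 kb.

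*−321* (93147581 to 93148127) was overlapped by P1, +24 and +24cc. Its fragments 93147185 to 93147692 and 93147693 to 93148674 were category 1 for both P1 and +24, and +24cc listed the second of them without category 1. The P1 interaction there ran from 93143260 to 93150670 and all its 15 fragments were category 1, as were all 8 of the +24 interaction (93146215 to 93151911). P1cc came to 2.10 kb, just beyond the 2 kb limit, with category 1 fragments, and P2 to 6.91 kb. The fragment 93150224 to 93150670, between *−321* and *−327*, was listed by P1cc, P1, +24 and +24cc and was category 1 for the first 3 of them.

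*−327* (93152585 to 93153572) was overlapped by P1cc and +24cc, whose interactions ended at the same base, 93154076. The P1cc interaction began at 93150224 and all its 8 fragments were category 1. That of +24cc began at 93152001 and none of its 4 fragments was. +24 ended 0.673 kb short of the element and P1 1.91 kb short of it, both on the side towards P1 and both with category 1 fragments. A further +24 interaction (93155226 to 93160169, 7 fragments, all category 1) began 1653 bp beyond the element on the far side. P2 was at 11.9 kb.

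*−354* (93179942 to 93180862) was also overlapped by P1cc and +24cc alone. Both listed its 2 fragments (93178912 to 93180637 and 93180638 to 93181072), and neither had them in category 1. The P1cc interaction was the longest of that bait and had 6 category 1 fragments of 25, the nearest 5.49 kb from the element. The longest interaction of +24, with all 24 fragments in category 1, began 0.559 kb beyond the element. P1 was at 11.4 kb and P2 at 39.3 kb.

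*−368* was placed by its name alone, with 500 bp to each side (93193575 to 93194574), because no primer places it. This stretch overlaps an exon of the predicted long non-coding RNA gene *Gm30530* (93184202 to 93193795). The overlap depends on the width taken, since about the cloned length around the same centre would lie beyond the gene's end. P1 listed all 5 *Dpn*II fragments that the stretch touches, none in category 1 (93192300 to 93195105). +24 and +24cc each listed 2 of the 5, both in category 1, and both interactions ended at 93194159. The +24 list covered 19 of the 19 *Dpn*II fragments of *Gm30530*, that of +24cc 16, that of P1cc 5 and that of P1 2. The nearest P1cc fragment was 3.54 kb from *−368*.

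*−371* (93197060 to 93198031) was overlapped by +24cc alone, which listed both its fragments in an interaction from 93195106 to 93198138 without category 1. P1 came to 1.55 kb (93199586 to 93201943, 5 fragments) and +24 to 1.96 kb (93199987 to 93209219, 17 fragments). These interactions lay on the far side of the element and were category 1 throughout. P1cc was at 7.02 kb.

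**Figure D5:**
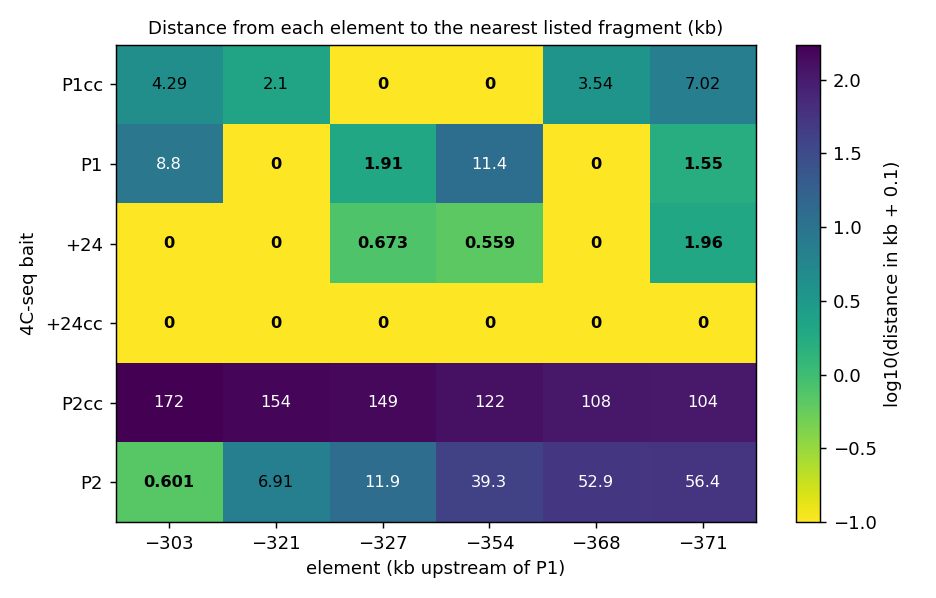
Distance in kb from each of the 6 elements (columns) to the nearest listed fragment of each bait (rows), on a log10 colour scale with 0.1 kb added, bold where it is within 2 kb and 0 where a fragment overlaps the element. The +24cc row is at 0 throughout, and P2cc is at 104 kb or more.

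Several of the most shared stretches lay away from the elements. Of the 8 fragments listed by 4 baits, 5 lay side by side from 93113440 to 93115054, 14103 bp from *−303* on the side of P1, and were listed by P1cc, P1, +24 and +24cc, with category 1 for P1 alone. A further pair, 93139603 to 93140668, was listed by P1, +24, +24cc and P2 with category 1 for +24 alone, and these were the 2 fragments found in all 3 pairs. They were also the only fragments of P2 in the block of elements. At the near edge of the desert, P1cc and P1 both began at 93050196, with 12 and 15 fragments that were all category 1, next to a +24cc interaction that ended at 93050195.

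Of the 120 ends of the 60 interactions, 26 (21.7%) fell on a position where another bait's interaction also ended on that side, at 13 positions. Over the whole domain this share was 23.3% of 494 ends. Of these positions, +24 with +24cc accounted for the start at 93124022 and the ends at 93123957, 93194159 and 93209219. Both +24 baits left out the same single fragment between their interactions, 93123958 to 93124021 (64 bp), which P1cc listed.

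The interaction from 93302523 to 93305396, 104 kb beyond *−371*, was listed with the same 6 fragments by P1cc and P2cc, all in category 1 for both. P1 listed 93302964 to 93305931 there without category 1, and neither +24 nor +24cc nor P2 listed any of it. The fragment of 219 bases with abutting GATA and RUNX matches shown above lies in it.

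The farthest listed fragments of the desert lay upstream of *1810053B23Rik*, a long non-coding RNA gene on the minus strand (93343716 to 93359543). P2 listed 15 fragments from 93359575 to 93366066, all category 1, which is its longest interaction in the desert and 534 to 540 kb from P1. P1 listed 6 fragments from the same first base to 93363013, and P2cc listed 3 from 93360544 to 93361666, in both cases without category 1. The first P1 and P2 fragments began 0.031 kb upstream of the gene's outermost start, and no bait listed any of the 43 *Dpn*II fragments of the gene body. Of P1cc, +24 and +24cc, the nearest fragment was one of +24 at 32.3 kb. RefSeq gives 4 promoter windows for this gene, of which 2 overlap each other at the outermost starts and hold the first base of the P1 and P2 interactions, and the other 2 (93353140 to 93353439 and 93354022 to 93354321) hold no listed fragment. The outermost window is shown because these interactions begin in it. It is the RefSeq window of 250 bases before to 50 after that start (GRCm38.p6), written along the gene's own strand with the same motifs in capitals.
*1810053B23Rik* promoter, chr16:93359494-93359793, minus strand: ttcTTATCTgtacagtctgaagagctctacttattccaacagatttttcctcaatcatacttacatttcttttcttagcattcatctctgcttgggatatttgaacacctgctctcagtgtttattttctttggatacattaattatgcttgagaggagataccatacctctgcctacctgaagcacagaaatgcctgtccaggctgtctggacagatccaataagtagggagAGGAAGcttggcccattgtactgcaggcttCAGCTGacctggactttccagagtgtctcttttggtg

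This window held 1 GATA, 1 ETS and 1 E-box match and no RUNX match, and the window that overlaps it (93359462 to 93359761) held the ETS and the E-box match alone. Of the windows without a listed fragment, 93354022 to 93354321 held 1 GATA and 1 ETS match, and 93353140 to 93353439 held no match. Of 32851 RefSeq promoter windows of the same length, 11.2% held AGATAA, 35.4% AGGAAG, 16.3% CAGCTG and 16.8% TGTGGT.

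The other curated genes of the desert had no listed fragment. *Mir802*, a microRNA gene (93369720 to 93369816), lay 3.65 kb from the end of the P2 interaction, 6.71 kb from that of P1 and 8.05 kb from that of P2cc. *1700029J03Rik*, a long non-coding RNA gene (93396815 to 93458872), lay at least 30.7 kb from any listed fragment. The protein-coding genes *Setd4* (93583460 to 93603815) and *Cbr1* (93607837 to 93610349), which encode a methyltransferase of the SET domain family and a carbonyl reductase, were 217 and 242 kb from the nearest fragment of P2. For +24 the nearest fragments to *Setd4* and *Cbr1* were 40.3 and 33.8 kb away, on the far side and outside the desert.

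Listed fragments were longer than unlisted ones, with a median of 392 bp against 268 bp for the 977 fragments of the desert in no list. Fragments under 100 bp made up 16.8% of the listed and 24.1% of the unlisted. Soft-masked bases, which mark repeats, made up 18.1% of the listed and 24.6% of the unlisted sequence, and the GC content was 44.6 and 45.9%. Without the empty last 269 kb, the unlisted fragments had a median of 264 bp, 21.9% soft-masked bases and a GC content of 45.5%. A *Bfa*I site was present in 59.3% of the listed and 53.2% of the unlisted fragments, and an *Mse*I site in 68.7 and 60.7%. The 60 fragments listed by 3 or more baits had a median length of 440 bp and 15.6% soft-masked bases. The part of fragment length, repeats and restriction sites in which fragments were listed was not tested.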

How the data were processed

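4C-seq libraries of HPC-7 cells were prepared by the authors with *Dpn*II and a second enzyme (*Bfa*I for P1 and P2 baits, *Mse*I for +24 baits). Reads were mapped by the authors to mm10 with Bowtie (as in the submitters' processing notes), without mismatches, and assigned to *Dpn*II fragments. Reads from self-ligation, from uncut sites or on fragments also seen in the non-ligated control were removed. Significant interactions of categories 1 and 2 were called by the authors with fourSig in each replicate, on chromosome 16 and on 92250000 to 93635000, and intersected between replicates. The removal of fragments with control reads and the restriction to mappable fragments mean that an unlisted fragment may not have been measurable. The deposited lists hold positions and categories, and their score column, as deposited by the authors, was 1000 throughout and was not used as a measurement.

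All listed fragments coincided with *Dpn*II fragments of chromosome 16 of GRCm38.p6. Abutting fragments were merged into interactions. Shares were compared with Fisher's exact test (two-sided), adjusted by the Benjamini-Hochberg method over 3 bait pairs or 6 baits, at a threshold of 0.05, and intervals are Wilson intervals (95%). Merging and test were run on simulated lists of separate interactions. Those lists lack the repeated contacts of neighbouring baits, so they do not give the error rate of the tests on these data. A fragment within 2 kb of an element was counted as a contact. The limit is that of the study, but distances were taken here from the cloned fragment (for *−368* from its stretch) and not from the binding cluster, so that contacts at 1.91 and 1.96 kb depend on it. Elements were placed by their cloning primers with at most 1 difference (edlib 1.3.9.post1), and *−368* by its name. Genes and promoters were those of RefSeq. Named in the text were the 6 elements, the curated genes of the desert, the fragments listed by the most baits or nearest an element, and the longest interaction of each bait. The predicted genes over *−303* and over the stretch taken for *−368*, the stretches with shared ends and the interactions upstream of *1810053B23Rik* were chosen after their values were seen. The members, the elements and the lists were chosen with earlier results of these data known. Python 3.11.15, numpy 2.4.6, scipy 1.17.1 and matplotlib 3.10.9 were used. Reads, contact profiles, transcription factor binding and reporter assays were not analysed here.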

Additional observations from a re-analysis of the deposited data

How the results depend on the processing

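The share of interactions in the desert was larger for the P1 pair and the +24 pair than for the P2 pair under each alternative run, but the adjusted p did not pass 0.05 in the following (two-sided Fisher's exact tests). For P1 against P2 the odds ratio was 3.74 with merging over 5 kb (exact adjusted p = 0.0685), 5.32 without the cc baits and 4.88 with the cc baits alone. For +24 against P2 it was 2.76 with merging over 5 kb, 3.84 with category 1 only, 2.62 without interactions within 50 kb of the bait, 2.85 without the cc baits and 4.68 with the cc baits alone. For P1 against +24, which did not pass, it turned to 0.99 without merging. With category 1 in the desert against the rest, the odds ratios of P1cc, P1 and +24cc were 0.246, 0.295 and 0.173 when fragments were not merged and then passed, where neighbouring fragments count separately. Those of +24 and P2, 1.94 and 0.842 in the report's setting, turned to 0.728 and 1.84 without merging and to 0.606 and 1.43 with merging over 5 kb. The comparison of P2 with interactions upstream of P1 alone gave no finite odds ratio. Elements contacted by direct overlap numbered 2 for P1, 3 for +24 and 0 for P2, P1cc had 5 within 5 kb, and with category 1 only P1cc had 1 and +24cc 2. Giving *−368* about its cloned length, rounded, changed no count. In category 1, P1cc had 44 fragments in the desert and +24cc 49. Counted as merged interactions, the lists held 16 (+24cc), 13 (each of +24, P1 and P1cc), 3 (P2) and 2 (P2cc). No paired analysis was possible because the lists hold only calls made in both replicates, and for the same reason no replicate could be left out. The lists give no reads, so what depth limits, above all for the short P2 and P2cc lists, cannot be stated.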
